A study of Mus musculus with 6 samples.

Results

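The genes described here were the 10 listed members of the insulin-like growth factor (IGF) system, out of 26264 gene symbols counted in each library: the 2 ligands Igf1 and Igf2, the 2 receptors Igf1r and Igf2r, and the 6 binding proteins Igfbp2, Igfbp3, Igfbp4, Igfbp5, Igfbp6 and Igfbp7. The group was chosen by symbol and by the measured values of Igfbp3, which had one of the largest falls after FGF8, so the difference between FGF8 and untreated cells at day 0 is given as a description, with no test. All 10 symbols were found in all 6 count files.

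The cells were brown preadipocytes from the stromal vascular fraction of Bl6N wild-type mice, immortalized with SV40 large T antigen. Cells received 5.5 nM FGF8 (fibroblast growth factor 8, a heparin-binding paracrine growth factor) for 48 h or were left untreated. They were then harvested (day 0) or taken through adipocyte differentiation without FGF8 and harvested on day 3 or on day 9, counted from the end of FGF8. Day 9 was 2 days on induction medium plus 7 days on differentiation medium, and the sample titles call it D7. Why the titles still call the earlier day D3 is not given in the sources used here. Each of the 6 conditions had 1 library, and all 6 came from immortalized cells that had been grown in serum and, at days 3 and 9, differentiated in medium holding insulin. The growth notes attached to the samples describe primary white preadipocytes, whereas titles and cell line fields name immortalized brown cells.

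IGF1 and IGF2 are secreted growth factors that signal through the receptor tyrosine kinase IGF1R. IGF2R, the mannose 6-phosphate receptor, instead takes up IGF2 and carries it to lysosomes. IGF-binding proteins hold the ligands outside the cell, where they can withhold them from the receptor or deliver them to it, and proteases that cut the binding proteins release the ligand. In brown preadipocytes insulin and IGF1 signalling are known to promote adipocyte differentiation.

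Libraries held between 16403254 and 38551551 counts. Values are normalized counts, that is, counts divided by a size factor per library, and fold changes are on the log2(normalized count + 1) scale with 95% counting intervals, which cover counting error alone. With 1 library per condition the spread between cultures was not measured. In bulk RNA, fewer cells of a type and less RNA per cell cannot be told apart. The preadipocyte and stromal markers moved with treatment: their summed levels on days 0, 3 and 9 were 220097, 201780 and 221426 normalized counts in untreated cells and 91445, 65896 and 80086 in FGF8 cells. At days 3 and 9 most of each sum was Col1a1 (152232 and 163720 in untreated, 52308 and 70433 in FGF8 cells). The median over the 8 markers was 20411, 7826 and 7805 in untreated and 7053, 1926 and 1497 in FGF8 cells. At least 2-fold lower after FGF8 were 5 of the 8 markers at day 0 and 8 of 8 at days 3 and 9. Of all genes 10.8%, 12.1% and 8.74% were lower by this rule on days 0, 3 and 9. Ly6a was the lowest of the 8 at day 0 (log2 fold change -4.24) and Dcn the highest (0.84). Adipocyte markers were summed at 8982, 382525 and 519903 in untreated and at 2546, 664188 and 603609 in FGF8 cells. The FGF8 sum was lower at day 0, where both sums were mostly Lpl (8251 in untreated and 2025 in FGF8 cells), and higher later. Over the 5 adipocyte markers with enough counts at day 0 the median log2 fold change was -0.59, with Fabp4 the highest (0.11). The brown adipocyte markers after FGF8 summed to 3.97, 2.75 and 1.18 times the untreated sum on days 0, 3 and 9. At day 0 the FGF8 sum was mostly Ucp1 (1328, against 0 in untreated cells), while Dio2 was lower (60.2 against 304.1). At day 9 both sums were mostly Ucp1 (91306 in untreated and 99587 in FGF8 cells). Endothelial markers were summed at 1635 in untreated and 76.8 in FGF8 cells at day 0, mostly Kdr. Only 2 of these 8 markers, Kdr and Tek, had enough counts at day 0, and both were at least 2-fold lower. At low counts Pecam1 (1.47 in untreated and 12.8 in FGF8 cells) and Cdh5 (4.41 and 8.96) were higher after FGF8. Pericyte and smooth muscle markers were summed at 4997 and 1677. Of the 6 with enough counts, 4 were at least 2-fold lower and 1, Cspg4, was higher (log2 fold change 1.31). Macrophage markers were summed at no more than 159 normalized counts in any library. The part of these marker differences in the results that follow was not tested.

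The genes lie on chromosomes 1, 5, 7, 10, 11, 15 and 17, and the pair Igfbp2 and Igfbp5 lies 5.5 kb apart on chromosome 1. Promoter windows of 300 bases (250 before and 50 after each transcription start) are shown for the 4 members with the largest differences after FGF8 and for Igf2r, the one member that was higher after FGF8 at day 0 by more than 1.5-fold. The windows are those of RefSeq on GRCm38.p6, an earlier build than the GRCm39 coordinates given below, and read 5′ to 3′ on the strand of the gene. Capitals mark matches, on either strand, to the TATA box letters TATAAA, the AP-1 letters TGANTCA, the CCAAT box letters CCAAT, the FOXO letters GTAAACA and the SP1 box letters GGGCGG. No 2 matches of different motifs overlapped in the windows shown.
Igfbp3, chr11:7213874-7214173, minus strand: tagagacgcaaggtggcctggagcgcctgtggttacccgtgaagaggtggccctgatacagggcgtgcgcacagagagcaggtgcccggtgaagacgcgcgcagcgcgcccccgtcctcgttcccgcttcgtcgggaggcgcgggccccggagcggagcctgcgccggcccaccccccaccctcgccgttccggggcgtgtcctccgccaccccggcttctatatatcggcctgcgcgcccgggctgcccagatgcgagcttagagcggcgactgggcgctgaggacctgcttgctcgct
Igf1, chr10:87860861-87861160, plus strand: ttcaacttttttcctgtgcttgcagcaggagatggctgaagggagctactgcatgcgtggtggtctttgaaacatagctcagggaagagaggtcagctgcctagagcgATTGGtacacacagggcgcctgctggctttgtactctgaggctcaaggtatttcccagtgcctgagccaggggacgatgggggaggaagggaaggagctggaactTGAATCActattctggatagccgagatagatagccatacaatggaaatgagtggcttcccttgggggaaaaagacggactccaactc
Igfbp5, chr1:72874816-72875115, minus strand: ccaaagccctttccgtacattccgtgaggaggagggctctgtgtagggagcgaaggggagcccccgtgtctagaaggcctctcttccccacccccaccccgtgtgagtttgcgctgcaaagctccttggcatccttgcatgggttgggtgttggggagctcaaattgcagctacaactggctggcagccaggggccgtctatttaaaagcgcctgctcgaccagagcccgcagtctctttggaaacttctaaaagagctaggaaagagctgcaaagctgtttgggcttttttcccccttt
Igfbp6, chr15:102143936-102144235, plus strand: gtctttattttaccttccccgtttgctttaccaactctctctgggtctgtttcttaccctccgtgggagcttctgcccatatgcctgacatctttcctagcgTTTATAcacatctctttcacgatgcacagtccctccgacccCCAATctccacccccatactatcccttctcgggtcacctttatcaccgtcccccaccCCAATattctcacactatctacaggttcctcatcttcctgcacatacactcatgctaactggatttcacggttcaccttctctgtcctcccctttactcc
Igf2r, chr17:12769657-12769956, minus strand: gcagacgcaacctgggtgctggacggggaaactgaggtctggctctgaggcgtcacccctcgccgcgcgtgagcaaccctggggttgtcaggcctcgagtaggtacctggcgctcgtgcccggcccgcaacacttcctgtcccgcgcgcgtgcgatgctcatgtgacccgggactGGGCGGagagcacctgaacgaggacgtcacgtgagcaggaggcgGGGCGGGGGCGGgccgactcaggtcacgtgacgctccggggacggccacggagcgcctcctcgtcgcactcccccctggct

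The Igf1 window held 1 match to TGANTCA, with its first base 37 bases before the start, and 1 match to CCAAT in its reverse form. The letters TGANTCA were found in 2 of the 14 windows of the 10 members and in 7.81% of all 32851 windows. The Igfbp6 window held 1 match to TATAAA and 2 to CCAAT, and the Igf2r window held 3 to GGGCGG, 2 of them side by side. The Igfbp3 and Igfbp5 windows held none of these letters. Over all 14 windows of the members, TATAAA was in 2 (13.6% of all windows), CCAAT in 3 (37.4%), GGGCGG in 6 (35.7%) and GTAAACA in 0 (3.65%). The 14 windows differed in base composition, from 49.7% G and C for Igfbp6 and one window of Igf2 to 76.0% for Igf1r, around a median of 52.7% over all windows.

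At day 0, at the end of the FGF8 treatment, the FGF8 library was lower by 2-fold or more for 6 of the 9 members that averaged 20 normalized counts or more over the pair (Igf1, Igf2, Igfbp3, Igfbp5, Igfbp6 and Igfbp7) and higher by that much for 0. Of all genes 10.8% were lower and 7.27% higher by this rule. Because a fall after FGF8 chose the group, nothing is read from that count, and the counts of the later days are descriptions too. At day 3 the count was 6 of 9 against 12.1% of all genes, and at day 9 it was 5 of 9 against 8.74%. At both later days 0 members were at least 2-fold higher, against 3.8% of all genes at day 3 and 1.12% at day 9. In the order of the days, the members' median log2 fold changes were -1.43, -1.37 and -1.08, and those of all genes 0.05, 0.08 and 0.08. The counts and medians of days 0 and 3 leave out Igfbp2, and those of day 9 hold Igfbp2 but leave out Igf2.

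Igf1 (ENSMUSG00000020053, GRCm39 chr10:87693642-87772904, plus strand) encodes the main ligand of IGF1R. On days 0, 3 and 9 its level in untreated cells was 13226, 13226 and 7790 normalized counts, and in FGF8 cells 170.3, 5265 and 3676. The FGF8 library at day 0 stood far below the other 5, and at every day the FGF8 value lay under the untreated one. The log2 fold change was -6.27 (interval -6.54 to -6.03) at day 0, a 77.2-fold difference, and -1.33 and -1.08 at days 3 and 9. Between day 0 and day 3 Igf1 did not move in untreated cells (log2 change 0.0001) but was 30.7-fold higher in FGF8 cells.

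Igf2 (ENSMUSG00000048583, GRCm39 chr7:142204503-142220694, minus strand) encodes the fetal growth factor and is expressed from the paternal allele in most tissues. It was counted at 235, 52 and 37 reads in untreated cells and 112, 30 and 12 in FGF8 cells at days 0, 3 and 9. Scaled, these were 345.2, 66.2 and 26.3 normalized counts without FGF8 and 143.4, 21.1 and 9.76 with it. Igf2 therefore lay lower in the FGF8 library of each day, by -1.26, -1.61 and -1.34 on the log2 scale, and lower at each later day in both treatments. Per kb of annotated exon, the ratio of Igf1 to Igf2 was 23.1 in untreated and 0.715 in FGF8 cells at day 0. By this measure Igf2 was the more abundant ligand transcript in the FGF8 library of day 0 alone. That order rests on the exon lengths used (10234 bases for Igf1 and 6162 for Igf2). In reads, Igf1 was the higher in that library, at 133 against 112 for Igf2. By day 9 the ratio was 179 in untreated and 227 in FGF8 cells. The transcript overlaps Igf2os on the opposite strand, which had 1 count in all libraries together.

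**Figure D1:**
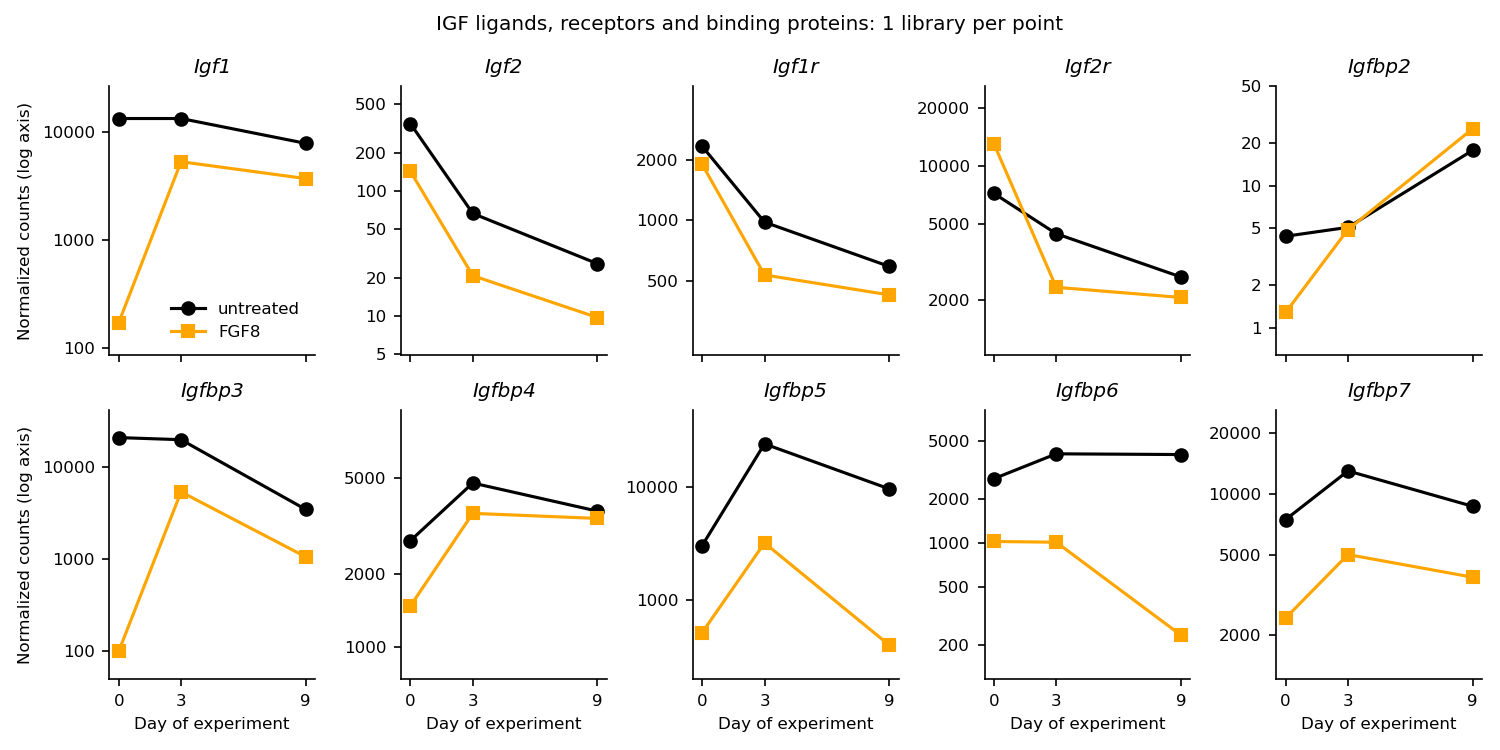
Normalized counts (log axis, set separately for each gene) of the 10 genes at days 0, 3 and 9, with 1 library per point, untreated cells as black circles and FGF8 cells as orange squares. Igf1 and Igfbp3 show a deep low in FGF8 cells at day 0 (170.3 and 99.9), while Igfbp5 and Igfbp6 lie furthest from the untreated value at day 9.

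The receptors differed less than the ligands. Igf1r (ENSMUSG00000005533, GRCm39 chr7:67601518-67883416, plus strand), the signalling receptor, was at 2338, 979 and 589 normalized counts in untreated cells and at 1900, 534 and 424 in FGF8 cells. FGF8 values were lower on each day by less than 2-fold (log2 fold change -0.30, -0.87 and -0.47). Igf2r (ENSMUSG00000023830, GRCm39 chr17:12901293-12988614, minus strand), the scavenging receptor, was at 7212, 4447 and 2646 in untreated and at 13094, 2337 and 2069 in FGF8 cells. It was thus higher after FGF8 at day 0 (log2 fold change 0.86, interval 0.81 to 0.91) and lower at day 3 (-0.93) and day 9 (-0.35). Per kb, Igf2r exceeded Igf1r in every library, by 14.5-fold in FGF8 cells at day 0 and by between 6.51-fold and 10.3-fold in the other 5. These ratios depend on the length used and would be smaller with the longest transcripts. The union of exons was 19768 bases for Igf1r and 9371 for Igf2r, and the longest transcripts 12559 and 8950. Airn, a long noncoding RNA that overlaps Igf2r on the opposite strand, had log2 fold changes of the same signs (0.32, -1.15 and -0.58), the first with a counting interval that includes 0. Whether the counting used strand is not given in the sources used here.

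Igfbp3 (ENSMUSG00000020427, GRCm39 chr11:7156086-7164179, minus strand) encodes the main carrier of IGFs in serum and also acts on cells directly. It stood at 21024, 19942 and 3483 normalized counts in untreated cells and at 99.9, 5403 and 1063 in FGF8 cells. The day 0 pair rested on 14313 and 78 reads. The FGF8 library was lower on every day, and its day 0 value was the lowest of the 6. The log2 fold change of -7.70 at day 0 (interval -8.06 to -7.40) was the 3rd lowest of 12657 genes, that of -1.88 at day 3 the 339th of 12892, and that of -1.71 at day 9 the 504th of 13070. Between days 0 and 3 Igfbp3 was 53.6-fold higher in FGF8 cells and 1.05-fold lower in untreated cells. Between days 3 and 9 it was lower in both, by -2.52 in untreated and -2.35 in FGF8 cells on the log2 scale.

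Igfbp5 (ENSMUSG00000026185, GRCm39 chr1:72897091-72914043, minus strand) encodes a binding protein that associates with extracellular matrix. It was at 3027, 24040 and 9608 normalized counts in untreated cells and at 513.4, 3191 and 397.5 in FGF8 cells. Both treatments had their highest value at day 3, and the 2 series did not overlap except that the FGF8 value at day 3 exceeded the untreated value at day 0. The difference was larger at each later day, with log2 fold changes of -2.56, -2.91 and -4.59. Igfbp6 (ENSMUSG00000023046, GRCm39 chr15:102052697-102057953, plus strand), whose product prefers IGF2 over IGF1, was at 2744, 4061 and 4015 in untreated and at 1019, 1007 and 232.5 in FGF8 cells. All 3 FGF8 values lay below all 3 untreated values. Its log2 fold changes were -1.43, -2.01 and -4.10, the last with an interval from -4.29 to -3.94.

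Igfbp7 (ENSMUSG00000036256, GRCm39 chr5:77493130-77555931, minus strand) encodes a secreted protein that binds IGFs weakly. It was at 7456, 12941 and 8663 normalized counts in untreated and at 2438, 5010 and 3874 in FGF8 cells. Every FGF8 value lay below every untreated value, by log2 fold changes of -1.61, -1.37 and -1.16. Igfbp4 (ENSMUSG00000017493, GRCm39 chr11:98932064-98945218, plus strand), a binding protein known mostly for holding IGFs away from their receptor, was at 2750, 4749 and 3638 in untreated and at 1481, 3562 and 3395 in FGF8 cells. It was the binding protein whose difference was smallest at day 9 among the 5 with more than 100 normalized counts there (log2 fold change -0.89, -0.41 and -0.10). Igfbp2 (ENSMUSG00000039323, GRCm39 chr1:72863606-72891634, plus strand) had 3, 4 and 25 reads in untreated and 1, 7 and 31 in FGF8 cells, and on each day the counting interval of the difference included 0. Its neighbour Igfbp5 was thus at 24040 normalized counts in the untreated library of day 3, in which Igfbp2 was at 5.09.

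**Figure D2:**
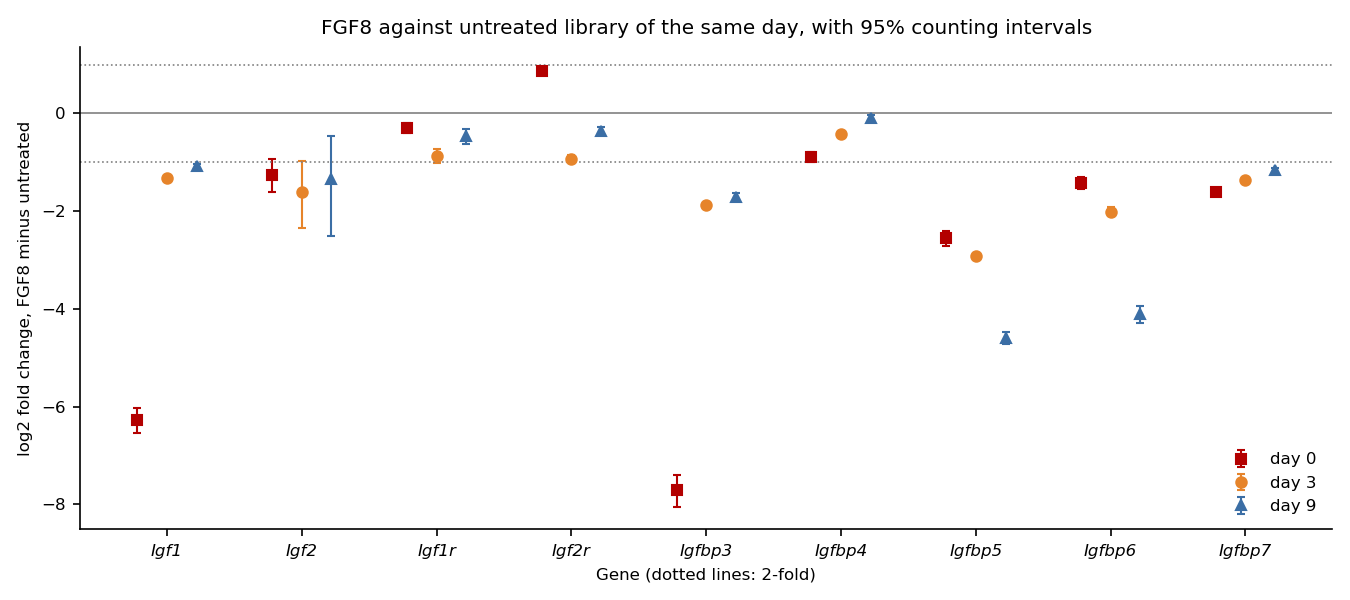
Log2 fold change of FGF8 against the untreated library of the same day for 9 genes (Igfbp2 is left out for its low counts), with day 0 as squares, day 3 as circles, day 9 as triangles and bars for the 95% counting interval. The differences of Igf1 and Igfbp3 are largest at day 0 (-6.27 and -7.70) and those of Igfbp5 and Igfbp6 at day 9 (-4.59 and -4.10), and Igf2r at day 0 is the single point above 0.

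Per kb, the composition of the binding protein transcripts differed with treatment and day. Such shares are taken within 1 library and do not depend on scaling between libraries. Igfbp3 made up 56.8% of the binding protein transcripts in untreated cells at day 0 and 1.71% in FGF8 cells. At day 3 the shares were close (35.0% and 33.7%), as they were at day 9 (12.4% and 14.7%). Igfbp6 held the largest share in FGF8 cells at day 0 (45.2%) and in untreated cells at day 9 (36.8%), but 8.33% in FGF8 cells at day 9. Igfbp4 held 5.99%, 6.72% and 10.4% in untreated cells and 20.5%, 17.9% and 37.9% in FGF8 cells. Its share was thus larger after FGF8 on each day although its own level was lower. Igfbp5 held 25.0% in untreated and 11.8% in FGF8 cells at day 3, and 20.2% and 3.27% at day 9. Igfbp7 took the rest beside Igfbp2, which stayed at or below 0.599%.

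The summed level of the 6 binding proteins in normalized counts per kb was 10382, 15991 and 7907 in untreated cells and 1635, 4504 and 2023 in FGF8 cells over the 3 days. Every FGF8 sum lay below every untreated sum, by 6.35-fold, 3.55-fold and 3.91-fold in day order. The ligand sum was lower by 33.8-fold, 2.52-fold and 2.12-fold. The ratio of binding protein to ligand transcripts per kb was therefore higher after FGF8 at day 0 (41.0 against 7.70) and lower at day 3 (8.70 against 12.3) and day 9 (5.61 against 10.3). The summed level of stromal markers, mostly Col1a1 at days 3 and 9, was lower after FGF8 as well, by 2.41-fold, 3.06-fold and 2.76-fold. The part of the stromal markers in these sums was not tested.

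**Figure D3:**
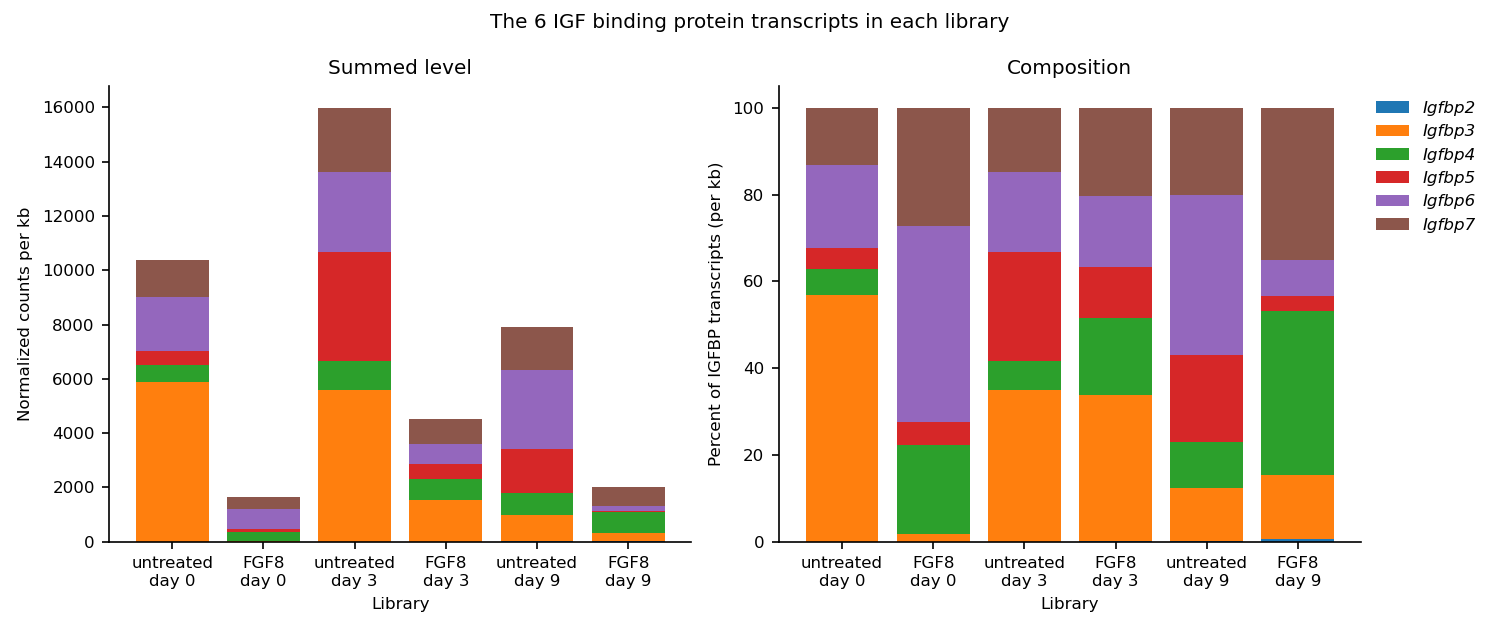
Left, the summed level of the 6 binding protein transcripts in normalized counts per kb of exon in each library. Right, the percent of that sum held by each gene, in which Igfbp3 goes from 56.8% to 1.71% between the untreated and FGF8 libraries of day 0 and Igfbp4 reaches 37.9% in the FGF8 library of day 9.

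Whether the members differed between days was tested over the 6 libraries with the treatment as a block. A day change of unlike size in the 2 treatments counts as error, so it is less likely to pass but can. By the edgeR quasi-likelihood test, adjusted over 14569 genes after Benjamini and Hochberg, 3 of 10 members were lower at day 3 than at day 0 (19.8% of all genes were) and 3 were higher (26.2% of all genes). Both shares of the members were of the same order as those of all genes. Igf2 fell by 2.50 on the log2 scale (SE 0.338, edgeR adjusted p = 0.00682, lower in 2 of 2 pairs). Igf1r fell by 1.48 (SE 0.211, edgeR adjusted p = 0.00765) and Igf2r fell by 1.56 (SE 0.462, edgeR adjusted p = 0.0449), so that both receptors were lower once differentiation had begun. For Igf2r the change was of unlike size, with log2 changes of -0.70 in untreated and -2.49 in FGF8 cells. Among the binding proteins Igfbp5 rose by 2.85 (SE 0.532, edgeR adjusted p = 0.014), Igfbp4 by 1.07 (edgeR adjusted p = 0.0205) and Igfbp7 by 0.98 (edgeR adjusted p = 0.0164). Igf1 and Igfbp3 did not pass (log2 changes 1.66 and 1.71 with SEs of 1.41 and 1.63), as their values moved in FGF8 cells and hardly in untreated cells. Without the FGF8 library of day 3 the counts were 0 lower and 0 higher. Without the untreated library of day 3, 1 was higher, and without that of day 0, 5 were higher.

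Between day 3 and day 9, 0 members were called lower and 0 higher by edgeR, against 0.00686% and 0.0618% of all genes. At an unadjusted p under 0.05 there were 4 of 10 members and 3110 of 14569 genes, and DESeq2 called 1 member lower, Igfbp5 (log2 change -2.04, DESeq2 adjusted p = 0.00115, range 0.00115 to 0.751 over the alternatives). Leaving out either day 0 library gave 4 lower and 1 higher. Igfbp3 (log2 change -2.41, SE 1.44) and Igfbp5 (-2.07, SE 0.523) had the largest declines.

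FGF8 was tested on the 4 libraries of days 3 and 9, with the day as a block and 1 residual degree of freedom. These libraries leave out day 0, but the choice by the fall of Igfbp3 after FGF8 named no day. The members were also chosen with earlier results known, so the test is not independent of the choice, least of all for Igfbp3. In this test 8 of 10 members were lower after FGF8 and 0 were higher, against 11.6% of all 14367 genes lower and 3.96% higher. Because of that choice the count and the p-values below are descriptions, and nothing is read from the count. The members' median log2 fold change was -1.26 and that of all genes 0.05. Igfbp5 fell by 3.76 (SE 0.382, edgeR adjusted p = 0.00111) and Igfbp6 fell by 3.05 (SE 0.425, edgeR adjusted p = 0.0035), each lower on 2 of 2 days. Igfbp3 fell by 1.83 (edgeR adjusted p = 0.00108), Igfbp7 by 1.29 (edgeR adjusted p = 0.00355) and Igf1 by 1.23 (edgeR adjusted p = 0.00442). Igf2 (-1.58, edgeR adjusted p = 0.0368), Igf1r (-0.70, edgeR adjusted p = 0.0413) and Igf2r (-0.67, edgeR adjusted p = 0.0465) passed by less. Igfbp4 (-0.28, edgeR adjusted p = 0.267) and Igfbp2 (0.34, edgeR adjusted p = 0.68) did not pass. These calls depended on the fit. DESeq2 called 6 members, without Igf2 (DESeq2 adjusted p = 0.169) and Igf1r (DESeq2 adjusted p = 0.062). With DESeq2's size factors in edgeR 5 members were called, without Igf2, Igf1r and Igf2r. With no day block 0 were called, and with the day 0 pair added 1, Igfbp7, was called. In the same 4 libraries 8 of 8 stromal markers were at least 2-fold lower after FGF8 on both days, beside 12.1% and 8.74% of all genes. The markers' median log2 fold changes were -1.81 and -2.04, and the part of this in the calls was not tested.

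**Figure D4:**
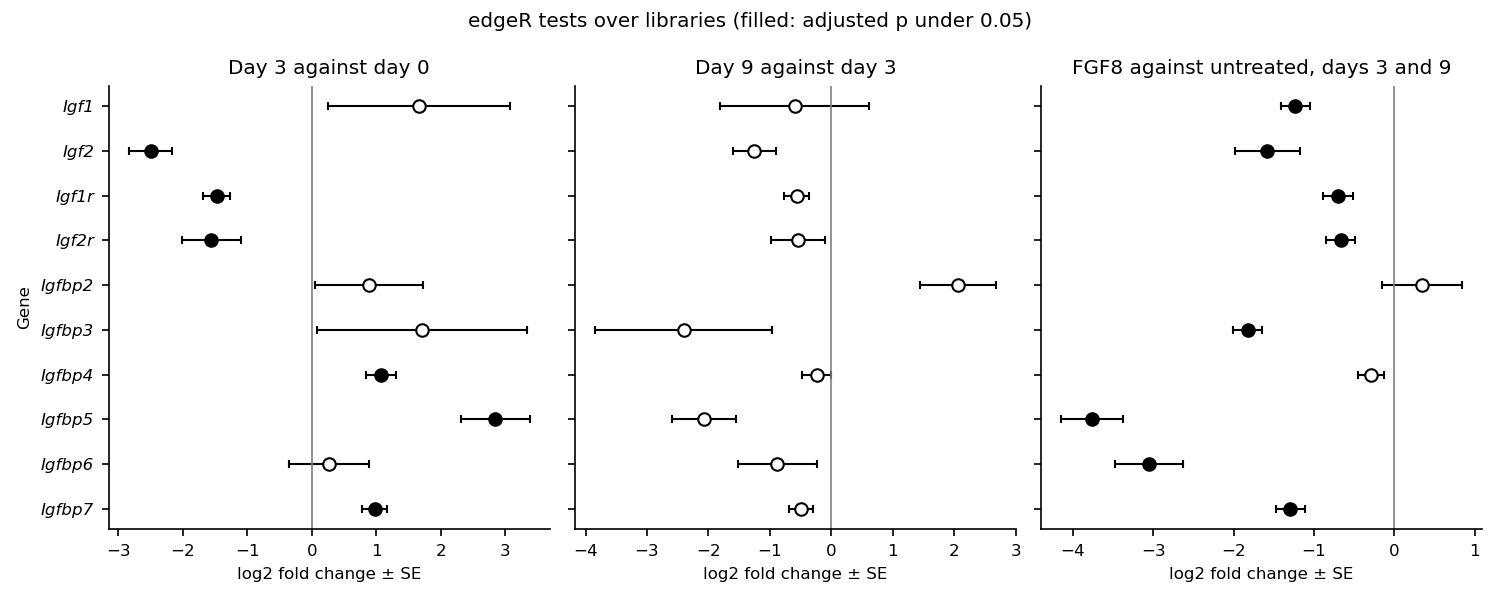
Log2 fold change with its SE for the 10 genes in the edgeR tests of day 3 against day 0, day 9 against day 3 and FGF8 against untreated at days 3 and 9, with filled points for adjusted p-values under 0.05. The first panel has 6 filled points, the second 0 and the third 8, where all filled points lie below 0. The third test is not independent of the choice of the members, which used a fall after FGF8.

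The other genes of the pathway were taken from lists by function. Of the 8 genes that cut binding proteins or control that cutting, 5 were lower after FGF8 in the test at days 3 and 9 and 0 were higher, beside 11.6% and 3.96% of all genes. Plat, the tissue plasminogen activator, was at 8428, 1740 and 1174 normalized counts in untreated cells and at 3528, 381.9 and 143.9 in FGF8 cells (log2 fold change at days 3 and 9 -2.62, edgeR adjusted p = 0.000728). Plau, the urokinase, fell by 2.05 in that test (edgeR adjusted p = 0.0015), and Htra1, a secreted serine protease, fell by 1.42 (edgeR adjusted p = 0.00286). At day 0, 4 of the 8 genes were at least 2-fold lower after FGF8 and 2 higher, beside 10.8% and 7.27% of all genes. Plau was higher after FGF8 at day 0 by less than 2-fold, at 1713 against 1034 normalized counts. Pappa, which encodes the protease PAPP-A, had log2 fold changes of -1.47, -1.70 and -1.59 on days 0, 3 and 9. Stc2, an inhibitor of the protease PAPP-A, was at 24.97 normalized counts in untreated and 192.0 in FGF8 cells at day 0, and at days 3 and 9 it did not pass (0.49, edgeR adjusted p = 0.239).

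Among 6 genes of the growth hormone axis, which drives Igf1 in many tissues, 2 were lower and 0 higher after FGF8 at days 3 and 9, beside the same 11.6% and 3.96% of all genes. Jak2, the kinase of the growth hormone receptor, fell by 0.69 (edgeR adjusted p = 0.0189), whereas the receptor gene Ghr did not pass (-0.31, edgeR adjusted p = 0.249). Jak2 had been higher after FGF8 at day 0, at 4614 against 3211 normalized counts. At day 0 Ghr was at 8386 normalized counts in untreated and 3294 in FGF8 cells, and Socs2, a feedback inhibitor and target of that receptor, at 2667 and 747.6. A further list of 8 genes held other IGF-binding genes, IGFBP receptors and the Igf2bp genes, whose products bind RNA. Of these, 5 had enough counts for the test at days 3 and 9, and 1 of them was lower (11.6% of all genes were). It was the endocytic receptor Lrp1, at 30839, 42517 and 22713 in untreated and 29441, 12188 and 9458 in FGF8 cells (log2 fold change -1.56, edgeR adjusted p = 0.00725). Lrp1 was thus level at day 0 and separated later. At day 0, 2 of the 6 genes of this list with enough counts were at least 2-fold higher after FGF8 and 0 lower. They were Esm1 (log2 fold change 2.37) and Igf2bp2 (1.17), beside 7.27% higher and 10.8% lower of all genes.

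Downstream of the receptor, 0 of 11 genes from PI3K to FOXO were at least 2-fold different after FGF8 at any day. Of all genes, 10.8%, 12.1% and 8.74% were lower by this rule on days 0, 3 and 9, and 7.27%, 3.8% and 1.12% higher. The test at days 3 and 9 called 0 of the 11, beside 11.6% of all genes lower and 3.96% higher. Nothing is read from a count of 0 among 11 genes. At day 3 against day 0, 7 of 11 were higher and 1 lower, beside 26.2% and 19.8% of all genes. Foxo1, a transcription factor that AKT excludes from the nucleus, rose by 3.04 (edgeR adjusted p = 0.0049) and the kinase gene Akt2 by 1.64 (edgeR adjusted p = 0.00593). Of 10 receptor partners and adaptors 9 were tested and 0 were called after FGF8 at days 3 and 9, beside the same 11.6% and 3.96%. By the 2-fold rule 2 of the 8 with enough counts were lower at day 0, Irs1 and Irs3 (log2 fold changes -1.82 and -1.94). At day 3, 1 of 8 was lower, Grb14 (-2.07), and at day 9, 0 of 8. None was higher by that rule on any day. At day 0 Irs1, the docking protein of the insulin and IGF1 receptors, was at 2199 in untreated and 623.5 normalized counts in FGF8 cells.

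Igf2 belongs to a set of imprinted growth genes, of which 10 others were examined. Of the 7 with enough counts, 3, 5 and 3 were lower by 2-fold or more after FGF8 on days 0, 3 and 9 (10.8%, 12.1% and 8.74% of all genes). Higher by 2-fold or more were 0, 0 and 2 (7.27%, 3.8% and 1.12% of all genes), the 2 at day 9 being Cdkn1c (log2 fold change 1.08) and Peg3 (1.25). The test at days 3 and 9 called 3 lower and 0 higher, beside 11.6% and 3.96% of all genes. Mest was at 2562, 3192 and 531.0 normalized counts in untreated cells and at 58.9, 1057 and 241.4 in FGF8 cells. Plagl1, a zinc finger factor, was at 6437, 3622 and 1046 in untreated and at 755.3, 1278 and 382.1 in FGF8 cells. H19, the noncoding neighbour of Igf2 expressed from the maternal allele, fell by 8.41 between day 0 and day 3 (edgeR adjusted p = 0.00192), in the same interval as Igf2.

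The genes whose pattern over the 6 libraries was most like that of Igfbp3, by Pearson correlation of log2 values over 11381 genes, were Mest (r = 0.991), Ppp1r12b (0.991), Gadd45b (0.990), Scfd2 (0.989) and Tnks1bp1 (0.985). The 6 libraries share 2 treatments and 3 days, so the correlations describe these libraries. Within the IGF system Igf1 (0.950) and Igfbp7 (0.882) came nearest of the 8 other members compared, and Igf2r was the least like it (-0.324).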

How the data were processed

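RNA of 6 libraries (2 treatments, 3 days) was sequenced from stranded mRNA libraries. The authors deposited raw counts per gene symbol, 1 file per library. The submitters' processing notes and methods name Trim Galore, HISAT2, the mouse build mm39 and featureCounts; versions, annotation, and the settings for strand and multiply mapped reads are not given in the sources used here. No row lacked a gene name.

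Groups came from the sample labels. The members and the gene lists were chosen with earlier results of these data known. Normalized counts are counts over DESeq2-type (median-of-ratios) size factors set across the 6 libraries. Before log2, 1 was added, and a gene entered the per-day counts if its pair averaged 20 normalized counts or more. Ratios of 2 libraries carry 95% exact binomial intervals of counting error. Tests used edgeR 4.0.16 (R 4.3.3; TMM, filterByExpr, quasi-likelihood, Benjamini-Hochberg adjustment over all genes, threshold 0.05), with DESeq2 1.42.0 as an alternative. These p-values treat the other treatment or day as the replicate, since no condition had a 2nd library, and say nothing of the spread between cultures. Scripts were tested on simulated data. Levels per kb used the union of exons in GENCODE M39 on GRCm39, and promoter windows came from RefSeq on GRCm38.p6.

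Named were all 10 members, up to 4 pathway genes per list by the largest fold on a day among those at least 2-fold different or called in a test (averaging 100 normalized counts or more), and the 5 genes most like Igfbp3. Airn, Kdr, Tek, Pecam1, Cdh5, Cspg4, Ly6a, Dcn, Col1a1, Lpl, Fabp4, Ucp1, Dio2, Pappa, Cdkn1c, Peg3 and Esm1 were named for a value beside a result. Alternatives were other scalings, pseudocounts, filters, fold rules, blocks, library sets and gene lengths.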

Additional observations from a re-analysis of the deposited data

Results flagged for a closer look

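Igf2r moved in opposite directions after FGF8 on different days. Its log2 fold change (FGF8 minus untreated) took the values 0.86, -0.93 and -0.35 on days 0, 3 and 9, each from 1 library per condition, and the difference between days was not tested.

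Igfbp3 differed between treatments in its course from day 0 to day 3. Its log2 change was -0.076 in untreated cells (from 21024 to 19942 normalized counts) and 5.74 in FGF8 cells (from 99.9 to 5403), with 1 library per condition, and the difference between treatments was not tested.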

How the results depend on the processing

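Each condition had 1 library and the tests had 1 or 2 residual degrees of freedom, so the spread between cultures is unknown and counting intervals do not include it. No member past the threshold changed sign under any alternative run. Of those that did not pass, leaving out 1 library moved the day 3 against day 0 log2 change between -0.054 and 5.87 for Igfbp3 and between -0.38 and 1.21 for Igfbp6, which was also -0.25 without FGF8 day 3. For day 9 against day 3 the ranges were -2.38 to 1.02 for Igf1 (0.28 without untreated day 9), -0.99 to 0.16 for Igf2r, -0.45 to 0.076 for Igfbp4 and -2.24 to 0.17 for Igfbp6. Other scalings put the median log2 fold change of all genes between -0.03 and 0.12, and the members' per-day log2 fold changes kept their sign under each. At a 4-fold rule 3, 2 and 2 members were lower at days 0, 3 and 9, and at a 1.5-fold rule 1 was higher at day 0. For day 3 against day 0, dropping the treatment block left 1 lower and 0 higher, and leaving out 1 library gave 0 to 3 lower and 0 to 5 higher. For day 9 against day 3, DESeq2 called 1 lower, the 4 libraries of those days alone gave 3 lower and 1 higher, and leaving out 1 library gave 0 to 4 lower and 0 to 1 higher. For FGF8 at days 3 and 9, DESeq2's size factors in edgeR gave 5 lower, no block 0 and all 6 libraries 1; leaving out 1 of these 4 libraries leaves no residual degree of freedom and was not run. The Igfbp3 share moved with the length used. With the longest transcript it was 54.9%, 33.8% and 11.6% in untreated cells and 32.0% and 13.7% in FGF8 cells at days 3 and 9, and from raw counts it was 30.3% and 11.8% in untreated and 29.7% and 11.8% in FGF8 cells at days 3 and 9. The cause of these changes was not tested. In 91 other recomputations of these summary values, the value stayed within 1.5 times the reported count or within its counting interval.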
